A study of Mus musculus with 12 samples.

Results

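The BAF (mammalian SWI/SNF) chromatin remodelling subunits described here are 10 genes chosen by symbol: *Smarca4*, *Smarca2*, *Smarcb1*, *Smarcc1*, *Smarcc2*, *Smarcd1*, *Smarce1*, *Arid1a*, *Arid1b* and *Pbrm1*. All 10 were among the 25860 genes listed for RNA-seq, and all 10 were among the 14459 genes that passed the filter on low counts. Of 23932 listed ATAC-seq peaks, 27 carried the name of one of these genes. RNA-seq and ATAC-seq were performed on CD8+ progenitor T cells (T_prog_) from the lymph nodes draining the pancreas, sorted from *NOD-TCR 8.3 WT* mice (WT below) or *NOD-TCR 8.3 UTX TCD* mice (UTX TCD below), to ask which genes and which open regions depend on the histone demethylase UTX, encoded by *Kdm6a* on the X chromosome. There were 3 libraries per genotype in each assay. ATAC-seq values were used only as the authors' mean of each genotype.

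UTX TCD mice were *UTX fl/fl Lck-Cre+*, so that Cre under the T cell promoter *Lck* deletes the floxed gene in T cells generally and not in T_prog_ cells alone. The line came from a C57BL/6 *UTX fl/fl LckCre+* stock crossed repeatedly to NOD. WT mice were UTX sufficient, and the study describes Cre-negative littermates as the controls of its *NOD-UTX TCD* line. Both groups were female, had the NOD background and carried the transgenic 8.3 T cell receptor, which recognizes a peptide of the β cell protein IGRP on MHC class I. The age of the sequenced mice was not given in the sources used here. The labels gave the sort gate as Ly108+CXCR6- and the study's methods gave it as Ly108+CD39-.

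The WT libraries held 146456724, 144503203 and 193568919 counted reads. The UTX TCD libraries held 61512402, 175462433 and 187275082, so UTX TCD 1 was the shallowest of the 6. Even there, the member with the fewest reads, *Smarcb1*, had 3786. Expression is given as normalized counts, the reads of a gene divided by 1 size factor per library.

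*Kdm6a*, the deleted gene, was at 28365, 28949 and 29172 normalized counts in the WT libraries and at 24159, 24792 and 24579 in the UTX TCD libraries. The groups did not overlap, in the direction of the labels, and *Kdm6a* fell by 0.23 on the log2 scale (SE 0.037, limma adjusted p = 0.00114). A count over the whole gene includes exons outside the deleted stretch, so its remaining level is no measure of the remaining protein.

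The CD8 chain genes *Cd8a* and *Cd8b1* and the general T cell genes *Cd3e*, *Cd3d*, *Cd2* and *Lck* were high in all 6 libraries, and summed to 862736 ± 22627 normalized counts in WT and 823749 ± 49872 in UTX TCD (SD, n = 3 each). Of these 6 genes, 1 was higher and 4 were lower in limma. The coreceptor chain gene *Cd8b1* fell by 0.37 (adjusted p = 0.00634), the adhesion gene *Cd2* by 0.49 (adjusted p = 0.00257), *Cd3d* by 0.28 (adjusted p = 0.00485) and the kinase gene *Lck* by 0.17 (adjusted p = 0.0225) on the log2 scale, while *Cd3e* rose by 0.17 (adjusted p = 0.0414). *Cd8a*, the most abundant of these genes, averaged 272155 ± 2012 and 298501 ± 23849 (SD, n = 3 each) and did not pass. *Tcf7*, which encodes the progenitor factor TCF1, averaged 235632 ± 8264 and 224012 ± 4856 (SD, n = 3 each), and the gene of its relative LEF1, *Lef1*, rose by 0.38 on the log2 scale (limma adjusted p = 0.00517). Of the sort markers, *Slamf6*, which encodes Ly108, was at 27732, 34096 and 23305 in WT and at 36665, 30980 and 35425 in UTX TCD, and the groups overlapped. *Cxcr6*, the chemokine receptor that the gate of the labels leaves out, fell by 1.07 on the log2 scale (SE 0.12, limma adjusted p = 0.000131), and *Entpd1*, which encodes CD39, averaged 17.3 ± 10.7 in WT and 7.24 ± 4.82 in UTX TCD (SD, n = 3 each).

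Markers of B, CD4 T, myeloid, NK, dendritic and erythroid cells were low beside *Cd8a* and *Tcf7*. Among B cell genes, *Cd79b*, which encodes a chain of the B cell receptor complex, was at 2502, 1930.1 and 2465 normalized counts in WT and at 648, 633 and 469.6 in UTX TCD, with no overlap of the groups, and fell by 1.98 on the log2 scale (SE 0.15, limma adjusted p = 1.47e-05). Its partner *Cd79a* averaged 388 ± 92.8 and 438 ± 78.1 (SD, n = 3 each), which did not pass (limma adjusted p = 0.489). *Ms4a1*, which encodes CD20, averaged 11.4 ± 7.36 and 41.0 ± 28.1 (SD, n = 3 each) and was higher in UTX TCD (limma adjusted p = 0.0367). *Cd4* averaged 92.3 ± 10.4 and 55.9 ± 13.6 (SD, n = 3 each) and was lower in UTX TCD (limma adjusted p = 0.0384). The 4 myeloid genes summed to 724 ± 98.6 and 928 ± 127 (SD, n = 3 each), and 2 of them passed in opposite directions. *Cd68*, the most abundant, rose by 0.43 on the log2 scale (limma adjusted p = 0.0377), and *Csf1r*, at 24.2 ± 4.53 and 6.07 ± 1.85 (SD, n = 3 each), fell by 1.85 (limma adjusted p = 0.00496). The summed NK, dendritic and erythroid genes each reached at most 170.3 in a library. *Ins2*, which encodes insulin, was at 0 in all 6 libraries. The stroma pair summed to 31012 ± 1209 and 36243 ± 2357 (SD, n = 3 each) and was led by *Pecam1*, which lymphocytes also express. *Pecam1* rose by 0.22 on the log2 scale (limma adjusted p = 0.0114), and the collagen gene *Col1a1* averaged 390.4 ± 118 and 456 ± 17.6 (SD, n = 3 each), which did not pass. *Mki67* and *Top2a*, markers of dividing cells, rose by 1.08 (SE 0.092, limma adjusted p = 3.25e-05) and 1.19 (SE 0.11, limma adjusted p = 4.14e-05) on the log2 scale. The part of cell division, or of any other of these markers, in the results below was not tested.

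BAF complexes use the energy of ATP to slide and evict nucleosomes, and thereby open enhancers and promoters to transcription factors. Each complex holds 1 ATPase, a shared core and a set of subunits that defines its class: ARID1A or ARID1B in canonical BAF, PBRM1 with ARID2 in PBAF, and BICRA or BICRAL in noncanonical BAF. In CD8+ T cells these complexes are known to take part in the choice between effector and memory fates, and UTX has itself been linked to SWI/SNF remodelling in T cells.

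To set the subunits side by side, levels were taken as normalized counts per kb of exon, over the union of all annotated exons. That union was 11476 bases for *Arid1a* and 7930 for *Smarcb1*, and is not the length of the transcripts in use. The order and the folds between genes therefore depend on the annotation. The order of the WT means was *Arid1a*, *Smarcc2*, *Smarca4*, *Pbrm1*, *Smarcc1*, *Smarca2*, *Smarce1*, *Smarcd1*, *Arid1b* and *Smarcb1*. *Arid1a*, at 10378 ± 549 (SD, n = 3) per kb, stood 9.16-fold above *Smarcb1*, at 1133 ± 27.1 (SD, n = 3) per kb. Over the 6 libraries, the levels per kb of 3 pairs of neighbours overlapped: *Smarcc2* with *Smarca4*, *Smarcc1* with *Smarca2*, and *Smarce1* with *Smarcd1*. Each other neighbour was separated, with every library of the upper gene above every library of the lower.

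**Figure D1:**
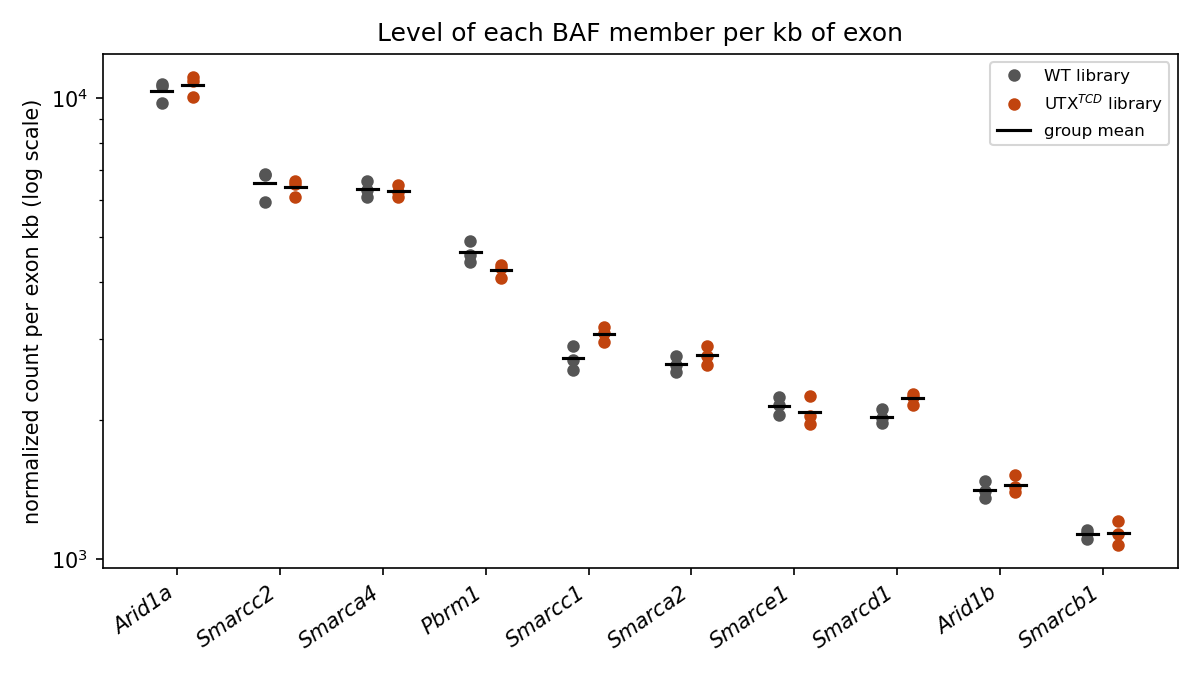
Level of each BAF member in normalized counts per kb of the union of annotated exons (log axis), with 1 point per library and a line at each group mean. The members span from 10378 per kb for *Arid1a* to 1133 per kb for *Smarcb1* in WT, and the genotypes lie close together within each gene.

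The comparison of genotypes moved a large share of the transcriptome. Of 14459 tested genes, 5887 (40.7%) passed an adjusted p of 0.05 in limma, with 2924 (20.2%) higher and 2963 (20.5%) lower in UTX TCD. With every library scaled to the same sum, in place of the authors' size factors, 3793 were higher and 2184 lower, so the balance of directions depended on the scaling. Of the 10 BAF members, 2 passed, *Smarcc1* and *Smarcd1*, and both were higher. The same 2 passed with the equal sums, with TMM scaling, and with edgeR and DESeq2 on the recovered reads. In limma with 1 library left out, 0 members passed without WT 1, UTX TCD 2 or UTX TCD 3, where 29.9%, 30.6% and 39.6% of all tested genes did. Without WT 3 (*Smarcd1*) or UTX TCD 1 (*Smarcc1*) 1 member passed, beside 32.4% and 33.8% of all, and without WT 2 (*Smarcc1* and *Pbrm1*) 2 passed, beside 39.7%. Groups did not overlap for 3 members (*Smarcc1*, *Smarcd1* and *Pbrm1*), against 51.9% of all tested genes. The median log2 fold of the members was 0.023 and their median absolute log2 fold 0.043, beside −0.00018 and 0.21 over all tested genes.

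When a log2 fold over 0.5 was also required, 2538 genes (17.6%) passed and 0 of the 10 members did in limma. The largest absolute log2 fold of a member was 0.18, and under every alternative run it was at most 0.24. At an unadjusted p of 0.05, 3 members passed, and 49.1% of all tested genes. All folds are on the scale of log2(normalized count + 1), with UTX TCD over WT, and the p-values measure only the spread between these libraries. In a bulk library, fewer cells of a type and less RNA per cell cannot be told apart.

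Neither ATPase gene passed the test. *Smarca4* encodes BRG1, and was at 41013, 39600 and 42872 normalized counts in WT and at 40494, 41978 and 39607 in UTX TCD. The UTX TCD libraries lay within the range of WT, and the log2 fold was −0.016 (95% CI −0.12 to 0.087, limma adjusted p = 0.804). *Smarca2* encodes BRM, the alternative motor, and was at 39365, 36263 and 37680 in WT and at 41474, 39422 and 37618 in UTX TCD. The groups overlapped, and the log2 fold was 0.064 (95% CI −0.050 to 0.18, limma adjusted p = 0.343). It was 0.13 with equal sums (limma adjusted p = 0.0625), and with 1 library left out it ran from 0.029 without UTX TCD 1 to 0.099 without UTX TCD 3. The interval of *Smarca2* reaches the fold measured for *Smarcc1*, and that of *Smarca4* does not.

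Because a complex holds a single ATPase, the share of *Smarca2* in the summed counts of both was taken in each library, a measure that no scaling of libraries can move. It was 49.0%, 47.8% and 46.8% in WT and 50.6%, 48.4% and 48.7% in UTX TCD. The groups overlapped, and the means of 47.9% and 49.2% differed by 1.40 percentage points (exact two-sided permutation p = 0.30, 0.375 after Benjamini-Hochberg adjustment over 5 shares). The difference was 0.720 percentage points without UTX TCD 1, 0.859 without WT 3 and at most 1.96, without WT 1. With counts divided by exon length the share was 29.4% ± 0.915 in WT and 30.6% ± 1.01 in UTX TCD (SD, n = 3 each). That lower share comes from the unions of annotated exons, 14269 bases for *Smarca2* and 6475 for *Smarca4*. These can hold exons of transcripts not in use, so the values do not settle which ATPase gene has more transcripts. With 3 libraries against 3, this test cannot give a p below 0.10.

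Among the core subunits, the scaffold gene *Smarcc1* gave the largest fold of the 10. *Smarcc1* encodes BAF155, on which the complex is built as a dimer, and was at 20172, 22733 and 21182 normalized counts in WT and at 23180, 24221 and 24946 in UTX TCD. All 3 UTX TCD libraries lay above all 3 of WT, and *Smarcc1* rose by 0.18 on the log2 scale (SE 0.053, 95% CI 0.056 to 0.30, limma adjusted p = 0.0267), a change of 13.0%. Without WT 1 the adjusted p was 0.110 and the log2 fold 0.14. The call was also lost without WT 3 (adjusted p = 0.0696 in limma), without UTX TCD 2 (adjusted p = 0.0797 in limma) and without UTX TCD 3 (adjusted p = 0.0709 in limma), while the fold stayed positive in each.

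*Smarcc2* encodes BAF170, the paralog that pairs with BAF155. It was at 37727, 33005 and 38020 in WT and at 36780, 36097 and 33887 in UTX TCD, with the lowest WT library below every UTX TCD library. The log2 fold was −0.025 (95% CI −0.16 to 0.12, limma adjusted p = 0.782). The share of *Smarcc2* among both scaffolds was 65.2%, 59.2% and 64.2% in WT and 61.3%, 59.8% and 57.6% in UTX TCD. These groups overlapped, with a difference of −3.27 percentage points (exact two-sided permutation p = 0.30, adjusted 0.375 over 5 shares). The difference was −2.12 without WT 1 and −5.10 without WT 2.

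*Smarcd1* encodes BAF60A, a core subunit through which transcription factors contact the complex. It was at 8139, 7934 and 8508 normalized counts in WT and at 8687, 9207 and 9063 in UTX TCD. The groups did not overlap, and *Smarcd1* rose by 0.13 on the log2 scale (SE 0.046, 95% CI 0.028 to 0.24, limma adjusted p = 0.0464), a change of 9.68%. This value sat just inside the threshold. With genes of low count kept in the test the adjusted p was 0.0651, with the replicate number as a block it was 0.0595, and of the 6 libraries only WT 3 could be left out without losing the call in limma (adjusted p of 0.0455 without WT 3, 0.135 without WT 1, 0.102 without WT 2, 0.0513 without UTX TCD 1, 0.166 without UTX TCD 2 and 0.0837 without UTX TCD 3). On the genome, 12.7% of the exon bases of *Smarcd1* are shared with gene models of the opposite strand, and reads of those would be counted together with it if the counting ignored strand, which the study does not state.

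The paralogs *Smarcd2* and *Smarcd3* take the place of *Smarcd1* in other complexes. Among the 3, *Smarcd1* made up 26.7%, 26.1% and 25.5% of the counts in WT and 27.9%, 27.3% and 27.6% in UTX TCD. Each UTX TCD share was above each WT share, by 1.52 percentage points on average. The exact two-sided permutation p was 0.10, the smallest possible, and 0.25 after adjustment over 5 shares. Of the exon bases of *Smarcd3*, 48.2% are shared with gene models of the opposite strand, so its counts carry the same doubt. *Smarcd2* itself was at 22566 ± 1499 in WT and 22825 ± 1110 in UTX TCD (SD, n = 3 each), which did not pass the test (limma adjusted p = 0.835).

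The remaining core subunits did not pass. *Smarcb1* encodes BAF47, which holds the complex on the nucleosome, and was at 8749, 9172 and 9025 in WT and at 8516, 9013 and 9602 in UTX TCD. Its UTX TCD libraries reached both below and above the range of WT, and the log2 fold was 0.0084 (95% CI −0.11 to 0.13, limma adjusted p = 0.912). *Smarce1* encodes the HMG-box subunit BAF57, and was at 14939, 14368 and 13656 in WT and at 15026, 13563 and 13066 in UTX TCD. These groups overlapped as well, with a log2 fold of −0.046 (95% CI −0.18 to 0.089, limma adjusted p = 0.576), which was −0.10 without UTX TCD 1 and −0.0036 without UTX TCD 3.

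The class-defining subunits of canonical BAF did not pass either. *Arid1a*, which encodes the large DNA-binding subunit ARID1A, was at 122052, 111867 and 123373 normalized counts in WT and at 124771, 127278 and 115123 in UTX TCD. The groups overlapped, and the log2 fold was 0.039 (95% CI −0.093 to 0.17, limma adjusted p = 0.627). *Arid1b*, its mutually exclusive paralog, was at 17700, 17127 and 18590 in WT and at 18029, 19177 and 17598 in UTX TCD. The groups overlapped here too, with a log2 fold of 0.037 (95% CI −0.075 to 0.15, limma adjusted p = 0.588). That fold was 0.0013 without UTX TCD 2, 0.0092 without WT 2, 0.068 without WT 3, 0.063 without UTX TCD 3 and 0.099 with equal sums, and passed in none of these. The share of *Arid1b* among both was 13.0% ± 0.314 in WT and 13.0% ± 0.329 in UTX TCD (SD, n = 3 each), a difference of −0.0196 percentage points (exact two-sided permutation p = 0.70, adjusted 0.70 over 5 shares).

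*Pbrm1* encodes BAF180, the subunit with tandem bromodomains that marks PBAF, and was the member with the most negative fold. It was at 40308, 39110 and 43385 in WT and at 36002, 38441 and 37820 in UTX TCD. All 3 UTX TCD libraries lay below all 3 of WT, with a log2 fold of −0.13 (95% CI −0.24 to −0.015), but the adjusted p of 0.0700 in limma missed the threshold. Without WT 2 it passed (limma adjusted p = 0.0381, log2 fold −0.16). With equal sums the log2 fold was −0.066 and the limma adjusted p 0.243. The share of *Pbrm1* in its sum with *Arid1a* and *Arid1b* does not depend on the scaling, and was 22.4%, 23.3% and 23.4% in WT and 20.1%, 20.8% and 22.2% in UTX TCD. The groups did not overlap and differed by −1.99 percentage points (exact two-sided permutation p = 0.10, the smallest possible, adjusted 0.25 over 5 shares).

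**Figure D2:**
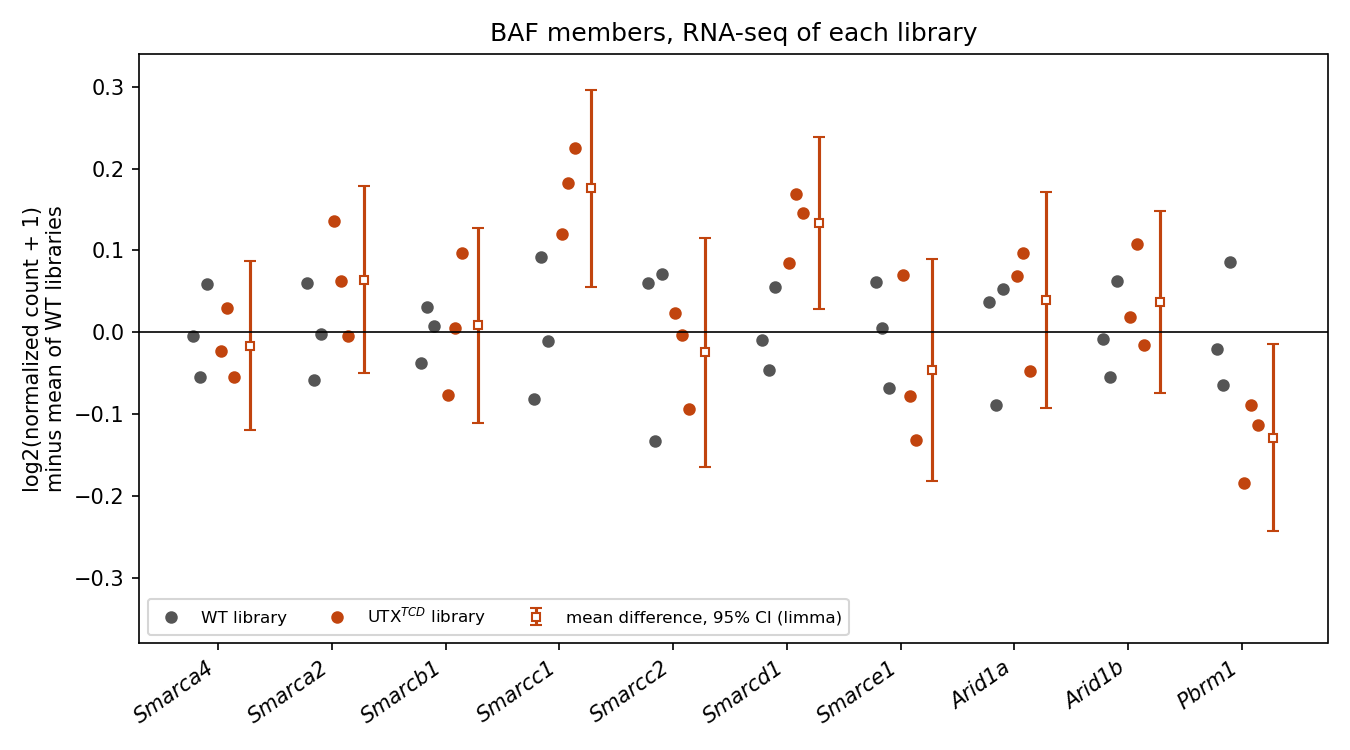
RNA-seq of the 10 BAF members as log2(normalized count + 1) minus the mean of the WT libraries, with 1 point per library and an open square for the mean difference of UTX TCD from WT (bar, 95% CI from limma). The intervals of *Smarcc1*, *Smarcd1* and *Pbrm1* leave out 0, and all 10 lie between −0.24 and 0.30.

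The rest of the SWI/SNF subunits give the setting. Of 21 listed, 20 were tested and 12 passed in limma (60.0%, beside 40.7% of all tested genes), 8 higher and 4 lower, with a median absolute log2 fold of 0.18 beside 0.21 over all tested genes. Without WT 3 or without UTX TCD 1, 7 of the 20 passed, beside 32.4% and 33.8% of all tested genes. Among the genes of noncanonical BAF, *Bicral* was at 4793, 4444 and 4829 normalized counts in WT and at 7254, 7366 and 8499 in UTX TCD. It rose by 0.71 on the log2 scale (SE 0.069, limma adjusted p = 6.40e-05), and 11.3% of its exon bases are shared with a gene model of the opposite strand, while its paralog *Bicra* was at 18892 ± 594 and 18134 ± 1532 (SD, n = 3 each) and did not pass (limma adjusted p = 0.464).

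In PBAF, *Arid2*, the partner of PBRM1, was at 20974, 22006 and 21677 in WT and at 24134, 25267 and 24232 in UTX TCD. It rose by 0.19 on the log2 scale (SE 0.041, limma adjusted p = 0.00587), with no overlap of the groups. The bromodomain gene *Brd7*, also of PBAF, was at 13542 ± 112 and 13624 ± 175 (SD, n = 3 each), a log2 fold of 0.0087 (95% CI −0.076 to 0.094). *Phf10*, which encodes the PBAF subunit BAF45A, was at 6287, 6996 and 6222 in WT and at 7443, 7332 and 7022 in UTX TCD, with 9.56% of its exon bases shared with a gene model of the opposite strand. It rose by 0.16 (SE 0.056, limma adjusted p = 0.0467), a call lost with edgeR (adjusted p = 0.0515), with no filter on low counts (0.0596 in limma) and without WT 1, WT 3, UTX TCD 1 or UTX TCD 2 (up to 0.158 in limma).

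Accessory subunits gave folds in both directions. *Actb*, the gene of the actin subunit, fell by 0.24 on the log2 scale (SE 0.074, limma adjusted p = 0.0304). It averaged 742348 ± 52465 normalized counts in WT and 628434 ± 31269 in UTX TCD (SD, n = 3 each). The *Actb* call was lost without WT 1, WT 3, UTX TCD 1 or UTX TCD 2 (limma adjusted p up to 0.125). *Ss18l1*, a paralog of the BAF subunit gene *Ss18*, rose by 0.49 on the log2 scale (SE 0.056, limma adjusted p = 0.000171), from 1751 ± 22.6 (SD, n = 3) to 2455 ± 5.19 (SD, n = 3) normalized counts. *Ss18* itself fell by 0.16 (SE 0.042, limma adjusted p = 0.0142), a call that was lost with equal sums (limma adjusted p = 0.0730) and without WT 3, UTX TCD 1 or UTX TCD 2 (up to 0.0625). In the BCL7 family, whose proteins bind the ATPase module, *Bcl7a* rose by 0.41 (SE 0.055, limma adjusted p = 0.000434) and *Bcl7c* fell by 0.57 (SE 0.086, limma adjusted p = 0.000802). *Bcl11b*, which encodes a zinc finger factor required for T cell commitment and found in BAF, was at 57104, 53639 and 58331 in WT and at 66193, 68689 and 68766 in UTX TCD, and rose by 0.27 (SE 0.046, limma adjusted p = 0.00169).

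Another 3 subunits with larger folds were barely expressed. *Dpf1*, known from neurons, was at 4.95, 4.94 and 3.05 normalized counts in WT and at 22.5, 23.2 and 26.5 in UTX TCD, where the expressed family member *Dpf2* was at 15924 ± 345 and 16365 ± 741 (SD, n = 3 each). *Dpf3* fell by 1.20 on the log2 scale from a mean of 21.5, and *Bcl11a* rose by 1.27 to a mean of 19.5 (limma adjusted p = 0.0265 and 0.0415), and neither passed with DESeq2. With a pseudocount of 10 the log2 folds were −0.74 and 0.73. With 1 library left out, *Dpf3* passed only without WT 2 or UTX TCD 2 and *Bcl11a* only without WT 2, with log2 folds from −1.36 to −1.02 and from 0.97 to 1.62. At such counts these 3 add little to the pool of subunit transcripts.

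Remodellers outside SWI/SNF were counted beside the 40.7% of all tested genes that passed. Of 11 tested genes of the ISWI family, 1 passed in limma and was higher, and the ATPase gene *Smarca5* did not pass (log2 fold −0.031, SE 0.056). Of 13 NuRD genes, 2 were higher and 3 lower. The ATPase gene *Chd3* rose by 0.49 on the log2 scale (SE 0.054, limma adjusted p = 0.000135), and *Chd4* did not pass (log2 fold −0.076, SE 0.051). Of 20 genes of the INO80 and SRCAP families, 2 were higher and 1 lower, and the ATPase genes *Ino80* and *Srcap* had log2 folds of −0.016 and −0.010 (SE 0.044 and 0.054).

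Accessibility at the members was examined next. By the study's methods the annotated peaks are those kept by its comparison of the genotypes, and no listed peak differed by less than 0.18 log2 units. A listed peak is thus a region already selected for a difference, and what follows is a description without a test. Values are the authors' log2 mean of normalized reads in each genotype. All 27 peaks named for a BAF member were higher in UTX TCD, against 68.8% of the 23932 listed peaks. The median size of the difference, whatever its sign, was 0.65 log2 units at the members and 0.71 over all listed peaks, and 17 of the 27 (63.0%) exceeded 0.5, against 73.1% of all. At least 1 listed peak was assigned to 6 of the 10 members, and to 47.6% of all tested genes. *Smarcc1*, *Smarcc2*, *Smarcd1* and *Arid1a* had none, which included both members whose RNA passed the test.

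By annotation, introns held 16 of the 27 peaks, intergenic DNA 6 and promoters 3. Introns took 59.3% of the members' peaks and 45.2% of all listed peaks, and promoters took 11.1% and 11.0%. The 3 promoter peaks were those of *Smarca2*, *Arid1b* and *Pbrm1*. Of all listed promoter peaks, 85.3% were higher in UTX TCD.

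*Arid1b* held 16 of the 27. Without it, the other members had 11 peaks, all higher, with a median difference of 0.62. The gene spans 353 kb at chr17:4994332-5347656 (mm10) on the plus strand, and 32 tested genes (0.221%), *Arid1b* included, had at least as many listed peaks. Of the 16, 4 lay upstream between genes, 1 at the promoter and 11 in introns 1 to 4 of 19, and none was past intron 4. The largest difference was at chr17:4879057-4879457, 114875 bases upstream of the gene, where the log2 mean was 5.94 in WT and 7.61 in UTX TCD, a difference of 1.66. In intron 4, chr17:5165262-5165662 had 7.29 and 8.45, a difference of 1.17. The promoter peak at chr17:4994085-4994485 was among the most open, with 10.18 and 10.49, and had the smallest difference of the 16, at 0.31.

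**Figure D3:**
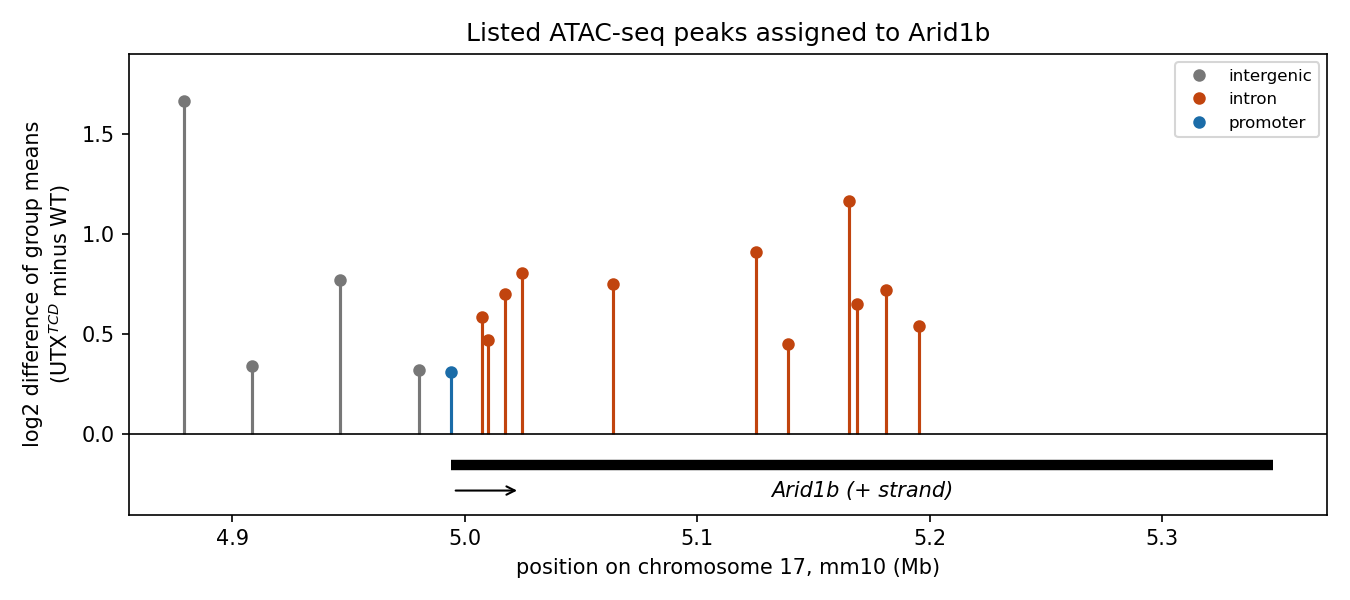
Difference in the authors' log2 group means (UTX TCD minus WT) of the 16 listed ATAC-seq peaks assigned to *Arid1b*, by position on chromosome 17 (mm10), with the gene drawn as a bar and its direction as an arrow. All 16 are above 0, from 0.31 at the promoter to 1.66 in the upstream region.

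The RNA of *Arid1b* had a log2 fold of 0.037 beside these peaks. For scale, and chosen after its values were seen, a set was formed of the 20 tested genes that had at least 10 listed peaks, all of them higher in UTX TCD. *Arid1b* itself belongs to this set. Of the 20, 11 were higher in RNA, 1 was lower and 8 did not pass in limma, with a median log2 fold of 0.25. Of the 6889 tested genes with at least 1 listed peak, 25.7% were higher in RNA and 52.0% did not pass. *Bcl11b*, which also belongs to the set of 20, had 21 listed peaks, all higher, with a median difference of 0.50, and its RNA passed the test.

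*Smarca2* had 4 listed peaks, at unlike places. The most open was chr19:26747795-26748195 (mm10), at the start of a short transcript that begins inside the gene, with a log2 mean of 10.98 in WT and 11.36 in UTX TCD, a difference of 0.39. A peak in an intron of the short form, chr19:26758170-26758570, had 6.00 and 7.05, a difference of 1.05. The other 2 lay outside the gene body: chr19:26540218-26540618, 64432 bases upstream, differed by 0.62, and chr19:26781241-26781641, 2919 bases past the 3' end and in an intron of the noncoding gene *4931403E22Rik*, differed by 1.30. No listed peak lay at the start of the full-length transcript.

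*Smarca4* had 2 listed peaks, both within it. In intron 1 of 33, chr9:21630606-21631006 had a log2 mean of 7.16 in WT and 7.57 in UTX TCD, a difference of 0.41. In intron 13, chr9:21652224-21652624 had 9.13 and 9.83, a difference of 0.70. The single peak assigned to *Smarcb1*, chr10:75926377-75926777, differed by 0.75 but lies 4760 bases upstream of that gene, in exon 6 of the matrix metalloproteinase gene *Mmp11*, so its tie to *Smarcb1* rests only on the nearest start site.

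*Smarce1* had 3 listed peaks. The 1 in intron 7 of 10, chr11:99216874-99217274, had the largest difference of the 3, 1.15, from a low log2 mean of 6.30 in WT. The peak over its first exon, chr11:99230514-99230914, had 9.65 and 9.91, a difference of 0.26, and chr11:99204006-99204406, 4641 bases past the 3' end, differed by 0.47. *Pbrm1* had 1, at its promoter, chr14:31019327-31019727, with 10.62 in WT and 10.87 in UTX TCD. That difference of 0.25 was the smallest of the 27, and stands beside an RNA value of opposite sign.

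Among the other SWI/SNF subunits, 42 of 50 listed peaks (84.0%) were higher in UTX TCD. *Bcl11b* held 21 of them, and without it 21 of 29 (72.4%) were higher, beside 68.8% of all listed peaks. *Bicral* had 4, all higher, with a median difference of 0.54, and its RNA rose. *Bicra* had 3, all lower, with a median of −0.62, and its RNA did not pass. *Arid2*, whose RNA rose, had 1 higher and 2 lower. *Smarcd3* had 2, of which the promoter peak differed by 1.59, while its RNA was at 666 ± 84.3 in WT and 747 ± 105 in UTX TCD (SD, n = 3 each) and did not pass (limma adjusted p = 0.359).

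Sequence of some of these regions was read from the reference genome, GRCm38.p6, whose chromosomes are those of mm10, to show what kind of DNA the peaks cover. Motif letters were searched on both strands in 23907 listed peaks, those of the usual width of 401 bases on the numbered chromosomes and X, leaving out unplaced and unlocalized scaffolds: CTTTGA, the core bound by TCF1 and LEF1, TTCNNNGAA for STAT factors, CCGGAAGT for ETS factors and TGTGGT for RUNX factors. The TCF1 letters were in 10 of the 27 members' peaks (37.0%) and in 30.6% of all those searched. The STAT letters were in 7 of 27 (25.9%) and in 11.9% of all, the RUNX letters in 8 of 27 (29.6%) and in 39.7% of all, and the ETS letters in 0 of 27 and in 1.45% of all. These are counts of letters, described without a test.

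The windows below were taken from stretches outside annotated exons, at most 300 bases each on the plus strand, with matches in capitals. The upstream *Arid1b* peak with the largest difference (chr17:4879108-4879407) is 46.3% G and C and holds the RUNX letters once, on the minus strand. The *Arid1b* promoter window (chr17:4994085-4994296), with the smallest difference of that gene, is 81.6% G and C and holds none of the 4 motifs. The intron 13 window of *Smarca4* (chr9:21652275-21652574) holds the STAT letters and, on the minus strand, the RUNX letters, and 94 of its 300 bases are masked as repeats in the reference. The *Smarca2* window at the internal start (chr19:26747835-26748134) holds none of the 4 motifs, and the *Pbrm1* promoter window (chr14:31019366-31019665) is 73.0% G and C and holds the TCF1 letters on the minus strand.
Arid1b upstream: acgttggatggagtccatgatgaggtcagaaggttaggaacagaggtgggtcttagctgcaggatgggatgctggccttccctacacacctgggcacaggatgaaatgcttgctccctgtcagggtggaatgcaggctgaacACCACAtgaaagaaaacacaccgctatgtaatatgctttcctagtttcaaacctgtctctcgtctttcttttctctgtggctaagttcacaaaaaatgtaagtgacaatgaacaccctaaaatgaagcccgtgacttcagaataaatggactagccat
Arid1b promoter: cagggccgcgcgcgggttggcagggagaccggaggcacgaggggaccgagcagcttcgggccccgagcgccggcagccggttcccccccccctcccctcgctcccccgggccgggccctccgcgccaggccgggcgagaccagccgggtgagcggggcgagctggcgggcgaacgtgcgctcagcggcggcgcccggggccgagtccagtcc
Smarca4 intron: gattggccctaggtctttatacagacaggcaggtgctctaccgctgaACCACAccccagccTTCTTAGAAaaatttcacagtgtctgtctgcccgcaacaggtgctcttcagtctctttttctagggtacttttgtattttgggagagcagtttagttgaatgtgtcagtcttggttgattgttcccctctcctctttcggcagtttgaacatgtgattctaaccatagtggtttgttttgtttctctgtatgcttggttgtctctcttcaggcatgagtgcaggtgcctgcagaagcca
Smarca2 internal start: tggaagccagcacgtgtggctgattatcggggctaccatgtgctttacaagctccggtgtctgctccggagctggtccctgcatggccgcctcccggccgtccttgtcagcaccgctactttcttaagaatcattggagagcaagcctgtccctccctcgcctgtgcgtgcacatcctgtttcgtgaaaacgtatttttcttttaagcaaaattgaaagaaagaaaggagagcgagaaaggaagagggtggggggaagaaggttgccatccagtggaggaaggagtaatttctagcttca
Pbrm1 promoter: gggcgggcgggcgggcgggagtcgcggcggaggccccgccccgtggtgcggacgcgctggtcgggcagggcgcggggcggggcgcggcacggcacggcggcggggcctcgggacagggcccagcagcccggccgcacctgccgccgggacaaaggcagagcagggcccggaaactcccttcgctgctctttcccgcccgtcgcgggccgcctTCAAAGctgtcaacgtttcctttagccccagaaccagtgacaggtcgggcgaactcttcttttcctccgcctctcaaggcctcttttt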

How the data were processed

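RNA-seq and ATAC-seq were run on 3 libraries per genotype, grouped by the sample titles. For RNA-seq, HISAT2 2.2.1 placed the reads on mm10 and featureCounts summed them by gene. The deposited RNA-seq signal is the count of a gene after the authors' scaling by a DESeq2 size factor, 1 per library. Neither the gene annotation nor the strand setting is stated. For ATAC-seq the authors used Cutadapt, Bowtie2, Picard to remove duplicates, MACS2 for peaks, DiffBind for the comparison of genotypes and HOMER for annotation, and a transposase shift is not stated. The deposited ATAC-seq values used here are log2 means of normalized reads per genotype, with no value per library. Further columns hold the authors' own log2 fold changes, their errors, p-values and false discovery rates, and were not used.

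Whole reads were recovered by undoing the size factors (100% of values within 0.01 of a whole read). A linear model with genotype as its single term was fitted to log2(normalized count + 1) with limma 3.58.1 under R 4.3.3 (eBayes with a trended prior), for each gene whose counts averaged 10 or more. p-values were adjusted over all tested genes by the Benjamini-Hochberg method, and the fit was tested on simulated data. On the recovered reads, 5865 genes passed with edgeR 4.0.16 and 5958 with DESeq2 1.42.0. Paralog shares were compared by an exact permutation test of the 6 libraries. Gene spans and exon lengths came from GENCODE M21, and transcripts and sequence from RefSeq GRCm38.p6, read with samtools 1.23.1. Counts per kb use the union of annotated exons, not the transcripts in use.

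The text names all 10 members, the paralogs in the shares, the other SWI/SNF subunits that passed with an absolute log2 fold over 0.25, at most 5 others, *Phf10* and *Actb*, chosen after their values were seen, *Kdm6a*, the sort markers and 5 catalytic subunits of other remodellers. The members and lists were chosen with earlier results of these data known. Of the marker genes, 1 of the marker genes is not reported here. The motifs, the printed windows and the set of genes with at least 10 peaks were chosen after seeing the data. Alternatives covered the pseudocount, the filter, the scaling, the test, a replicate block, each library left out, the fold limit, exon length and the choice of peaks.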

Additional observations from a re-analysis of the deposited data

How the results depend on the processing

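Of the 10 members, 2 passed the test with pseudocounts of 10 and 0.5, a count minimum of 50, both other scalings, edgeR and DESeq2. With no filter on low counts 1 passed, and with the fold limit of 0.5 the count was 0 of the members and 2538 of all genes. With 1 library left out, 0 to 2 members, 7 to 12 of the other SWI/SNF subunits and 4324 to 5734 of all genes passed. These fits have fewer libraries. Signs of folds near 0 were not stable. With every library scaled to the same sum, which moved the median log2 fold of all genes to 0.062, the log2 folds of *Smarca4*, *Smarcc2* and *Smarce1* were 0.046, 0.038 and 0.016, and those of *Smarca2*, *Smarcb1*, *Arid1a* and *Arid1b* were 0.13, 0.071, 0.10 and 0.099. With 1 library left out, the log2 fold ranged from −0.044 to 0.014 for *Smarca4*, from −0.036 to 0.051 for *Smarcb1*, from −0.091 to 0.011 for *Smarcc2*, from −0.10 to −0.0036 for *Smarce1* and from −0.0051 to 0.083 for *Arid1a*, and the difference in share from −0.193 to 0.164 percentage points for *Arid1b*, from 0.720 to 1.96 for *Smarca2* and from −5.10 to −2.12 for *Smarcc2*. The listed peaks of the members numbered 3 at promoters, 6 within 10 kb of a start site and 17 with a difference over 0.5. The lowest depth was 61512402 reads in UTX TCD 1, where *Dpf1* had 10 reads, and the effect of depth was not tested.

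With the replicate number as a replicate block, 1 member (*Smarcc1*), 9 other subunits and 5702 genes passed, and the calls of *Smarcd1* (limma adjusted p = 0.0595), *Dpf3* (0.0511), *Bcl11a* (0.0611) and *Actb* (0.0532) were lost. Deviations of same-numbered libraries had r of 0.305 for number 1, −0.200 for number 2 and 0.0897 for number 3 across genes. The differently numbered WT 3 and UTX TCD 2 had r of 0.294, close to the value of number 1. Not every library correlated best with its own number, and the numbers were not taken to pair the libraries.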
